A study of Mus musculus with 4 samples.

Results

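The let-7 and miR-98 family is the set of mature microRNAs that share the let-7 seed, and its 9 members here were taken by name as mmu-let-7a-5p, mmu-let-7b-5p, mmu-let-7c-5p, mmu-let-7d-5p, mmu-let-7e-5p, mmu-let-7f-5p, mmu-let-7g-5p, mmu-let-7i-5p and mmu-miR-98-5p, written without the species prefix from here on. They are 9 of the 1073 mature miRNAs in the deposited table, and all 9 were measured. The study sequenced small RNA from wild type naive CD4+ T cells of mouse spleen, transfected with ASO in 2 samples and with CRO, its control, in 2 samples, then activated with antibodies to CD3 and CD28 and harvested at 48 h. Cells of both groups were therefore transfected and activated, and unstimulated cells are not part of the comparison. The series' design text names CRO as the control, whereas a deposited summary file lists ASO under Control and CRO under Case. What the abbreviations stand for, what ASO targets and its dose are not in the labels. Nothing there states that samples of a group had separate mice or cultures as their source, so p-values here cover sample-to-sample spread only, possibly of technical origin.

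A miRNA guides an Argonaute protein to messenger RNAs by pairing through its seed, the bases near its 5′ end, and the paired messages are repressed. The let-7 family is known for restraining genes of growth and of immature cell states, among them Hmga2, Myc and Lin28, and the protein LIN28 in turn blocks the maturation of let-7 precursors. In mouse T cells let-7 is abundant while the cells are quiescent and declines after activation.

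The mature sequences, from RefSeq on GRCm38.p6, are shown because the members can be told apart only by the bases outside the seed, and because the 4 that depart from let-7a at base 11 or 12 had the highest ratios of library b over a in ASO and the lowest in CRO, where a and b name the 2 libraries of each group. Capitals mark the seed, bases 2 to 8, which is the same in all 9, and each sequence runs 5′ to 3′.
let-7a-5p: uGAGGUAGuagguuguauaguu
let-7b-5p: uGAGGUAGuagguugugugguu
let-7c-5p: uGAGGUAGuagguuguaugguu
let-7d-5p: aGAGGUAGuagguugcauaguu
let-7e-5p: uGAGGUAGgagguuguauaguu
let-7f-5p: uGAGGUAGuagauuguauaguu
let-7g-5p: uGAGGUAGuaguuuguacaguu
let-7i-5p: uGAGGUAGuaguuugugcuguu
miR-98-5p: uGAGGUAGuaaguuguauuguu

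All 9 are 22 bases long. Counted from 1 at the 5′ end and relative to let-7a-5p, let-7c-5p carries A19G, let-7e-5p U9G and let-7f-5p G12A, so each of these differs from let-7a-5p by 1 base. let-7b-5p carries A17G and A19G, let-7d-5p U1A and U16C, let-7g-5p G12U and U18C, and miR-98-5p G11A and A19U. let-7i-5p is the most distant from let-7a-5p, with G12U, A17G, U18C and A19U. How many mismatches the authors allowed in assigning a read is not given in the sources used here, so the split of reads between members that differ by 1 base is uncertain.

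The 9 members come from 12 hairpins in the GENCODE M21 annotation of GRCm38, and let-7a-5p, let-7c-5p and let-7f-5p each occur in 2 of them, so their counts cannot be assigned to a locus. On chromosome 13, the hairpins of let-7a-1 (chr13:48538179-48538272, minus strand), let-7f-1 (chr13:48537829-48537917) and let-7d (chr13:48536012-48536114) lie in exons of the long non-coding RNA 6720427I07Rik. On chromosome X, let-7f-2 (chrX:151912346-151912428, plus strand) and miR-98 (chrX:151913214-151913321) lie in an intron of Huwe1, which encodes a ubiquitin ligase. On chromosome 15, let-7c-2 (chr15:85706603-85706697, plus strand) and let-7b (chr15:85707319-85707403) lie in exons of the non-coding transcript Lncppara. The others stand in separate places: let-7g (chr9:106178840-106178927, plus strand) in an intron of Wdr82, let-7i (chr10:122985640-122985724, minus strand) in an exon of the transcribed pseudogene D630033A02Rik, and let-7e (chr17:17830352-17830444, plus strand) in an intron of Spaca6. let-7c-1 (chr16:77599657-77599750, plus strand) lies in an intron of Mir99ahg, and let-7a-2 (chr9:41536716-41536811, plus strand) in an intron of the non-coding transcripts 3110039I08Rik and Gm49317.

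The authors deposited a mean normalized count for each group, which is a count divided by its library's size factor (a scaling for depth) and averaged over the 2 libraries. Both counts behind each mean were recovered from its digits and gave totals of 10192717 and 10483405 counts for the ASO libraries and 5617699 and 3300457 for the CRO libraries. Since the digits hold no replicate number, the pair in each group is named by size factor, library a having the larger. Of the 7 miRNAs listed for T cells, miR-155-5p and miR-142a-3p were abundant in every library. The least counted of the 7 was miR-181a-5p, at 4946 and 5277 in ASO, against 7143 and 8874 in CRO. How far these 7 mark T cells alone was not tested. The summed normalized counts of 5 erythroid markers, miR-451a among them, were 2112 and 1768 in ASO, against 3018 and 3575 in CRO, and those of 3 myeloid or stromal markers, miR-223-3p among them, were 5601 and 5678 in ASO, against 6198 and 7247 in CRO. Of the erythroid markers, miR-486a-5p and miR-486b-5p had nearly the same counts in every library, 744 and 742 in ASO library a, so they are not separate markers here. The erythroid sums hold these counts under both names, which widens the gap between the groups. None of these 8 markers, the miR-486 pair counted as 2, had a group mean of 0, and all 8 had a lower mean in ASO. Of the 482 miRNAs whose mean over all libraries reached 10, which miR-143-3p did not, 226 were lower in ASO. The part of these markers in the values below was not tested.

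The family made up a similar share of all miRNA reads in both groups, and its total did not separate them. Of the authors' means added over all miRNAs, it held 15.8% in ASO and 16.5% in CRO. Library by library it was 15.48% (95% Wilson interval 15.46 to 15.50) and 16.15% (16.13 to 16.17) in ASO, against 17.41% (17.38 to 17.44) and 15.47% (15.44 to 15.51) in CRO, where the intervals cover counting error only. The groups overlapped, with the CRO libraries at the highest and the lowest value of the 4. The authors' means of the members added up to 1080343 in ASO, against 1084034 in CRO (log2 ratio -0.0049). In these bulk samples fewer cells of a type and less RNA per cell cannot be told apart.

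The members spanned a wide range of read counts, let-7f-5p being the highest and let-7e-5p the lowest, and their order was nearly the same in both groups. let-7f-5p was first in both group means and ranked 5 among all 1073 miRNAs in each group, and let-7a-5p ranked 8 in each. With let-7i-5p these made up 72.2% of the family in ASO and 72.1% in CRO. The order by the mean over all libraries ran let-7f-5p, let-7a-5p, let-7i-5p, let-7c-5p, let-7g-5p, let-7d-5p, let-7b-5p, miR-98-5p and let-7e-5p. Ranges of neighbours overlapped for let-7f-5p and let-7a-5p in CRO, for let-7c-5p and let-7g-5p in ASO, and for let-7d-5p and let-7b-5p in both groups, so those neighbours are not ordered beyond their spread. The 5 other pairs of neighbours lay apart in both groups. Small RNA cloning does not capture all miRNAs equally well, so this is an order of read counts and not of molecules.

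**Figure D1:**
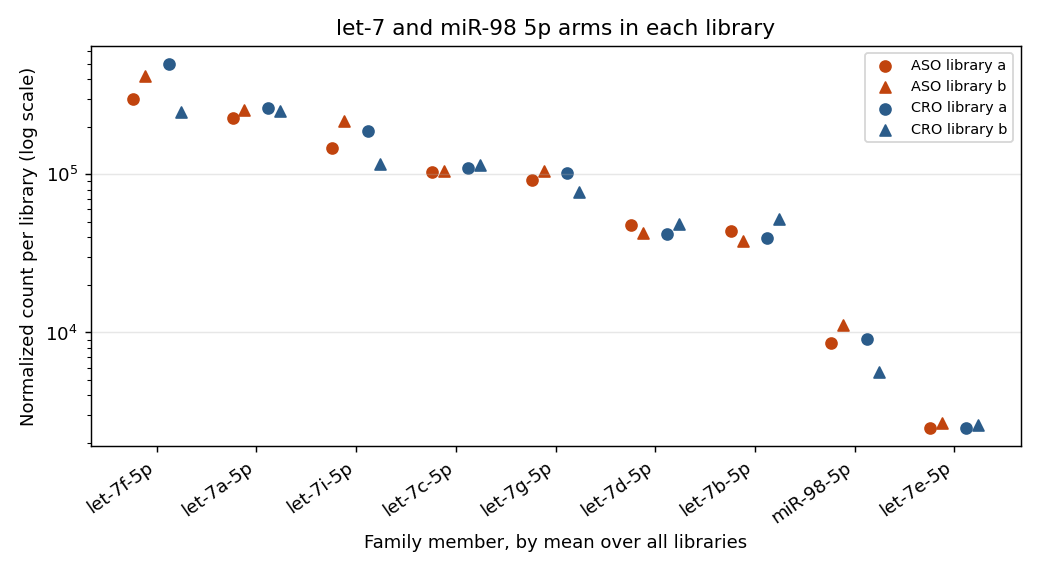
Normalized count (log scale) of each family member in the 4 recovered libraries, with 2 ASO points left of 2 CRO points for each member. let-7f-5p, at 298379.7 and 416386 in ASO and 496024 and 248932 in CRO, has the widest spread within CRO, while let-7e-5p lies between 2500.3 and 2683 in all 4 libraries.

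No member passed the authors' test for a difference between ASO and CRO. By the authors' deposited table, 0 of 9 members had an adjusted p under 0.05, each being at 1, while 1.21% of all 1073 miRNAs did, 0.0932% as higher in ASO and 1.12% as lower. A raw p under 0.05 was likewise found for 0 of 9 members and 2.8% of all miRNAs in the authors' deposited table, and together with a change of at least 2-fold for 0 of 9 and 1.96%. The log2 ratios of ASO over CRO were above 0 for 4 members and below 0 for 5, with a median of -0.010. Of the 482 miRNAs whose mean over all libraries (the base mean) reached 10, 256 were above 0, and their median was 0.041. A limma fit of the recovered libraries on log2(normalized count + 1) called 0 of 9 members and 3.11% of the 482 miRNAs at an adjusted p under 0.05. At an unadjusted p under 0.05 the limma fit gave 0 of 9 members and 12.2% of the 482 miRNAs.

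For each of the 3 most counted members, the difference between groups in normalized counts was smaller than that between the 2 ASO libraries. For let-7f-5p and let-7i-5p, but not for let-7a-5p, it was also smaller than that between the 2 CRO libraries. let-7f-5p had normalized counts of 298379.7 and 416386 in ASO, against 496024 and 248932 in CRO. The CRO libraries enclosed both ASO libraries, and the authors' deposited table puts the log2 ratio at -0.06 (p = 0.75). let-7a-5p, whose sequence is conserved across bilaterian animals, had 228039 and 253511 in ASO, against 262825 and 251332 in CRO. ASO library a was the lowest and the other 3 lay close together, with a log2 ratio of -0.09 by the authors' deposited table. let-7i-5p had 146108 and 216804 in ASO, against 187900.5 and 116378 in CRO, so each group had a high and a low library, and the log2 ratio was 0.25 by the authors' deposited table. The limma 95% intervals of the log2 difference, ASO minus CRO, ran from -0.84 to 0.85 for let-7f-5p, from -0.63 to 0.44 for let-7a-5p and from -0.48 to 1.01 for let-7i-5p, so differences of up to about that size in either direction are not excluded by these libraries.

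In normalized counts, let-7c-5p and let-7e-5p were the steadiest, which depends on the size factors. By share of a library's total count, let-7g-5p varied less than either. let-7c-5p, which differs from let-7a-5p by 1 base, had 103385 and 104692 in ASO, against 109389 and 114861 in CRO. In these normalized counts it was the only member of the 9 whose groups did not overlap, with ASO lower. The groups did not overlap for 41.9% of the 482 miRNAs, and lay apart with ASO lower for 18.7% and with ASO higher for 23.2%. By share of a library's total count, the groups of let-7c-5p overlapped. Those of let-7a-5p lay apart on that scale with ASO lower, ASO library a being only just under CRO library a. How many of the 482 miRNAs lay apart on that scale was not counted, so no meaning is given to it. The log2 ratio of let-7c-5p was -0.11 by the authors' deposited table, with a limma 95% interval of -0.63 to 0.41. let-7e-5p, the least counted member, had 2504 and 2683 in ASO, against 2500.3 and 2617 in CRO. Its 4 libraries lay within a narrow band, and the log2 ratio was 0.02 (limma 95% interval -0.49 to 0.52).

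let-7d-5p and let-7b-5p were high in the same libraries. let-7d-5p, which carries U1A, had 47879 and 42359 in ASO, against 42188 and 48686 in CRO. let-7b-5p had 43915 and 38032 in ASO, against 39637 and 52309 in CRO. For both, ASO library a and CRO library b were the higher of their group, and the groups overlapped. The log2 ratios were -0.01 for let-7d-5p and -0.17 for let-7b-5p, both by the authors' deposited table.

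let-7g-5p and miR-98-5p had the opposite arrangement. let-7g-5p had 91283 and 105058 in ASO, against 101069 and 76711 in CRO, a log2 ratio of 0.14 by the authors' deposited table. miR-98-5p, the member not named let-7, had 8543 and 11124 in ASO, against 9080.4 and 5628 in CRO. In normalized counts, ASO library b and CRO library a were the higher of their group for both, as for let-7f-5p and let-7i-5p. By share of a library's total count, let-7g-5p was instead higher in ASO library a than in ASO library b. Of the 9 members, miR-98-5p had the largest log2 ratio, at 0.42 by the authors' deposited table (p = 0.40), with a limma 95% interval of -0.23 to 1.13. Without CRO library a its limma log2 difference became 0.79 ± 0.26 (SE) and passed (limma adjusted p = 0.028), in a fit that called 13.1% of the 482 miRNAs and 6.43% as higher in ASO. Without CRO library b it was 0.10 (limma adjusted p = 0.91), and over all 4 libraries 0.45 ± 0.29 (SE, limma adjusted p = 0.61).

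**Figure D2:**
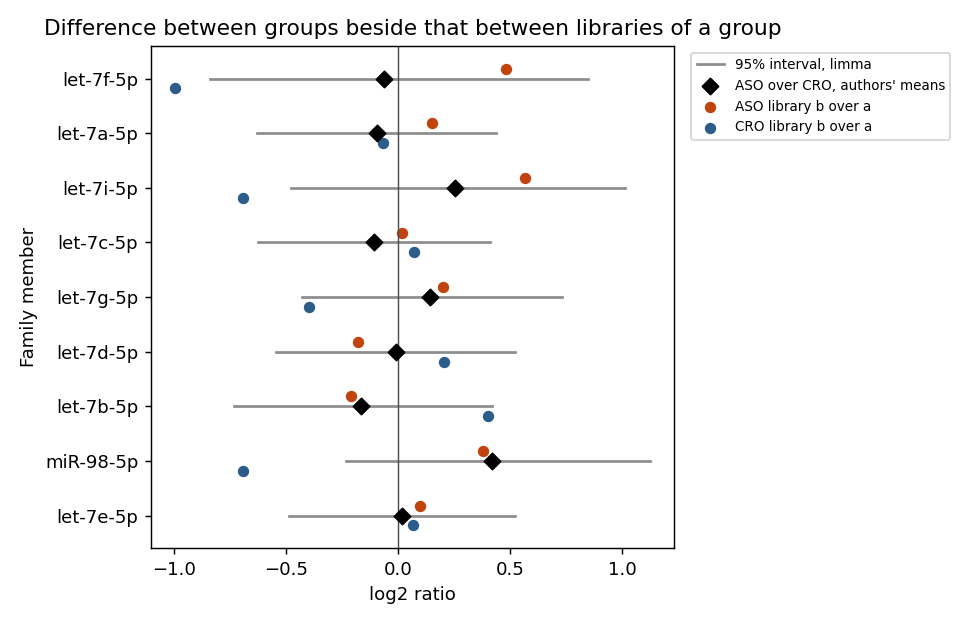
For each member, the log2 ratio of ASO over CRO from the authors' means (diamond) with the limma 95% interval of the difference (grey line), and the log2 ratio of library b over a within ASO (red) and within CRO (blue). All 9 intervals include 0, and the ratio within CRO reaches -0.99 for let-7f-5p.

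Set against the spread within a group, the difference between groups was small. It was smaller than the difference between the 2 CRO libraries for 7 of 9 members, let-7a-5p and let-7c-5p being the exceptions. It was smaller than the difference between the 2 ASO libraries for 7 of 9 as well, let-7c-5p and miR-98-5p being the exceptions. For let-7f-5p the log2 ratio of library b over a was 0.48 in ASO and -0.99 in CRO. Among the 120 miRNAs whose base mean reached 1000, 10 had a larger difference between the CRO libraries than let-7f-5p, and 8 a larger one between the ASO libraries. The median absolute log2 ratio over those 120 was 0.22 between the ASO libraries, 0.36 between the CRO libraries and 0.23 between the groups.

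The make-up of the family shifted between libraries of the same group. let-7f-5p was 30.8% and 34.97% of the family in ASO, against 39.7% and 27.1% in CRO. let-7a-5p was 23.5% and 21.3% in ASO, against 21.0% and 27.4% in CRO, and in CRO library b it was the most counted member. let-7i-5p was 15.1% and 18.2% in ASO, against 15.02% and 12.7% in CRO. let-7b-5p was 4.53% and 3.19% in ASO, against 3.17% and 5.70% in CRO. The make-up of ASO library b was closer to that of CRO library a than to that of ASO library a for 5 members, let-7a-5p to let-7e-5p.

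**Figure D3:**
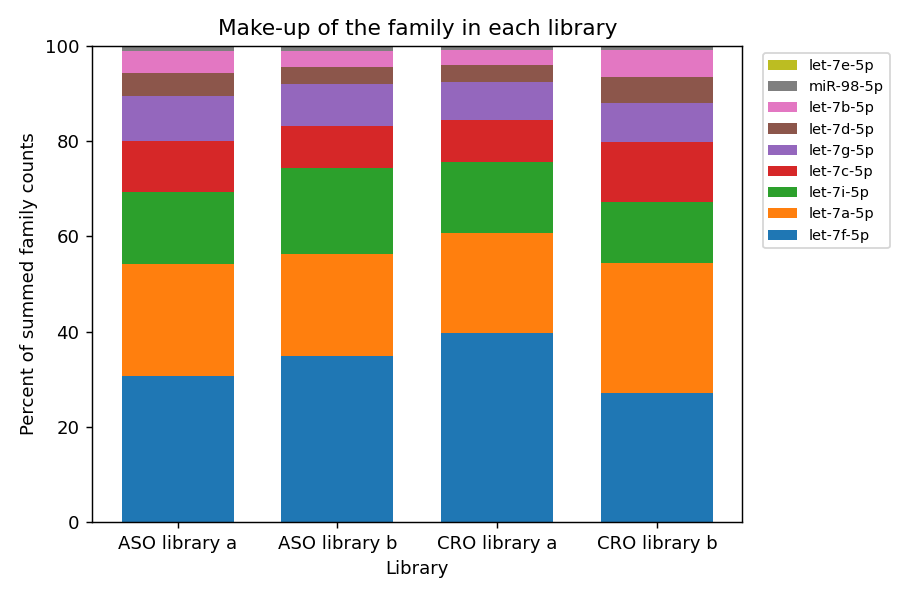
Percent of the summed family counts taken by each member in the 4 recovered libraries, ASO left of CRO. let-7f-5p takes 39.7% in CRO library a and 27.1% in CRO library b, and let-7a-5p 21.0% and 27.4%.

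Arranged by sequence, the 4 members with the highest ratio of library b over a in ASO, which were also the 4 with the lowest in CRO, were those that lack GG at bases 11 and 12, a split chosen after the values were seen and therefore given without a test. For let-7f-5p, let-7g-5p, let-7i-5p and miR-98-5p the log2 ratio of library b over a lay between 0.20 and 0.57 in ASO and between -0.99 and -0.40 in CRO. For the 5 members with GG, let-7a-5p to let-7e-5p, it lay between -0.21 and 0.15 in ASO and between -0.06 and 0.40 in CRO. The summed normalized counts of the 4 members without GG were 544314 and 749372 in ASO, against 794074 and 447649 in CRO. Those of the 5 members with GG were 425723 and 441277 in ASO, against 456539.9 and 469806 in CRO. In normalized counts the first sum therefore varied within each group and the other stayed nearly level. The normalized counts of all miRNAs added up to 6267388 and 7373023 in ASO, against 7184647 and 5928923 in CRO. The members with GG were therefore not a level share of all reads. Between the authors' group means the log2 ratio, ASO over CRO, was 0.06 for the members without GG and -0.10 for those with it.

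The ratios in ASO and CRO were also related across the abundant miRNAs, less so when less counted ones were included. Since a and b are named separately within each group, the sign of each r below depends on that naming. Across those 120 miRNAs, the log2 ratio of library b over a in ASO and that in CRO had a Pearson r of -0.58, over miRNAs that share these 4 libraries and are not independent. Over the 482 miRNAs whose base mean reached 10, this r was -0.24. Across the 100 of those 120 miRNAs with a RefSeq mature sequence, the GC share of the sequence had an r of -0.48 with the ratio in ASO. With the ratio in CRO this r was 0.56. Across the 378 such miRNAs whose base mean reached 10, these were -0.26 and 0.42. The members without GG hold 31.8% to 40.9% G and C, and those with GG 36.4% to 45.5%. Depth differed as well, CRO library b being the shallowest at 3300457 counts. What part base composition or depth has in the members' values was not tested.

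**Figure D4:**
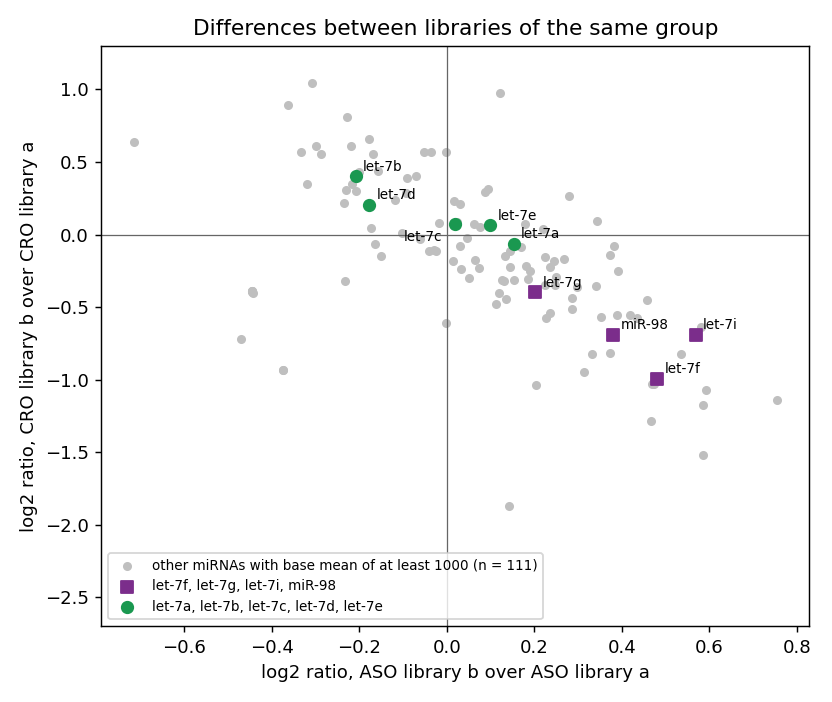
Log2 ratio of library b over a in ASO (horizontal) and in CRO (vertical) for the 120 miRNAs whose base mean reached 1000, the family in colour. let-7f, let-7g, let-7i and miR-98 (squares) lie at the lower right, and let-7b and let-7d at the upper left with a ratio of 0.40 and 0.21 in CRO.

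The opposite arms of the same hairpins, which are mostly discarded when the 5p arm is loaded into Argonaute, were counted far less. Of 11 named 3p rows in the table, 9 reached a base mean of 10. let-7a-1-3p and let-7c-2-3p have the same mature sequence and the same count in all 4 libraries, so their reads cannot be told apart. For the 6 members with a hairpin and an opposite arm of their own, the 5p arm took between 98.3% (miR-98, ASO library a) and 99.98% (let-7b, ASO library b) of the reads of both arms. By the authors' deposited table none of the 11 passed the test, beside 1.21% of the whole table. Of the 9, 5 had a log2 ratio above 0 and 4 below, with a median of 0.17 beside 0.041 for the 482 miRNAs. The 5 above 0 hold let-7a-1-3p and let-7c-2-3p, each at 0.22, which are the same measurement under separate names. Counting it under both names raises that number and the median, so neither is read as a departure from all miRNAs.

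The 3p arms did not all follow their 5p partners. let-7i-3p had normalized counts of 315.4 and 327.0 in ASO, against 207.2 and 362.9 in CRO, so CRO library b, the lowest library for let-7i-5p, was the highest for let-7i-3p. The ratio of 5p to 3p reads of let-7i was accordingly 463 and 663 in ASO, against 907 and 321 in CRO. let-7g-3p, at 33.2 and 33.1 in ASO, against 28.1 and 41.3 in CRO, was also highest in CRO library b. It rests on 54 and 47 reads in ASO, against 22 and 23 in CRO, few enough for counting error to matter. miR-98-3p had 147 and 133 in ASO, against 129 and 89.8 in CRO, and its ASO libraries both lay above its CRO libraries (log2 ratio 0.35 by the authors' deposited table). let-7f-1-3p, at 92.2 and 100.6 in ASO, against 65.2 and 84.4 in CRO, also lay apart with ASO higher (log2 ratio 0.37 by the authors' deposited table). let-7d-3p, at 404 and 323 in ASO, against 552 and 516 in CRO, lay apart with ASO lower (log2 ratio -0.56 by the authors' deposited table). With 2 of 9 higher and 1 of 9 lower, these stand beside 41.9% of the 482 miRNAs whose groups did not overlap. The remaining 3p arms overlapped between groups, let-7f-2-3p among them at 66.4 and 90.7 in ASO, against 87.0 and 107.8 in CRO, and the least counted, let-7e-3p and let-7a-2-3p, had at most 14 reads in any library.

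**Figure D5:**
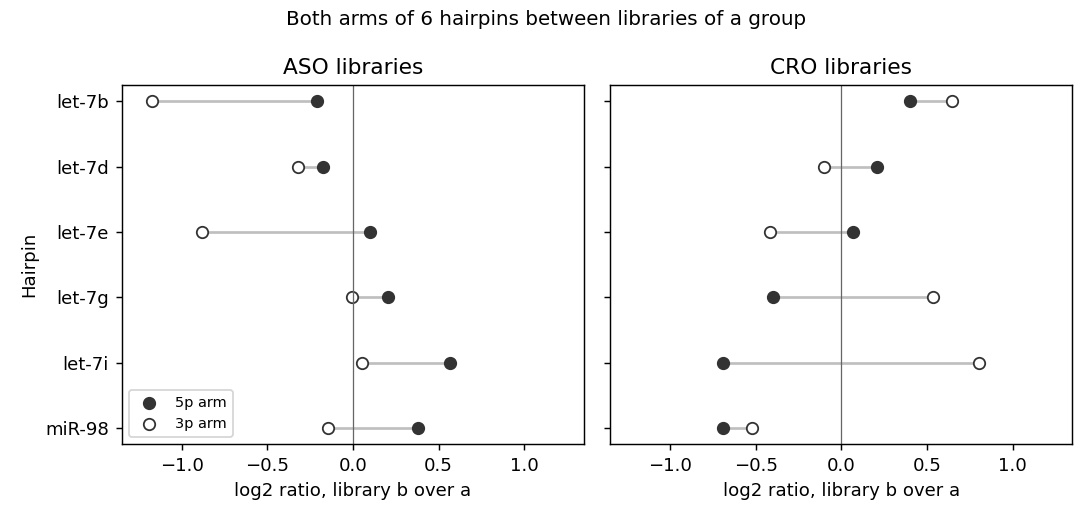
Log2 ratio of library b over a for the 5p arm (filled) and the 3p arm (open) of 6 hairpins, in ASO (left) and CRO (right). In CRO the arms of let-7i lie at -0.69 (5p) and 0.81 (3p) and those of let-7g at -0.40 and 0.54, on opposite sides of 0. The 3p arm of let-7g had only 22 and 23 reads in CRO.

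Outside the 9 members the table holds let-7j and let-7k, whose names place them beside the family. Their RefSeq sequences are shown because they bear on which reads were counted where. Capitals again mark bases 2 to 8.
let-7j: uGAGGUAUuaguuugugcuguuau
let-7k: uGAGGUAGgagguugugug

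let-7j differs from let-7i-5p over the length of let-7i-5p only by G8U, inside the seed, so it does not share the let-7 seed. Its normalized counts were 19367 and 28980.4 in ASO, against 23488 and 15089.7 in CRO (log2 ratio 0.33 by the authors' deposited table). These were 13.3% and 13.4% of let-7i-5p in ASO, against 12.5% and 13.0% in CRO, a nearly fixed proportion although let-7i-5p itself varied. Whether reads of let-7i-5p were counted as let-7j was not tested. let-7k has the let-7 seed and was barely detected, with 2 and 2 reads in ASO, against 4 and 2 in CRO.

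Some hairpins of the family share primary transcripts with miR-99a, miR-99b, miR-100, miR-125a and miR-125b. None of the 5 neighbours passed the authors' test, beside 1.21% of all miRNAs. A log2 ratio below 0 was found for 4 of the 5, beside 226 of the 482 miRNAs whose base mean reached 10. By the authors' deposited table, 1 of the 5 had a raw p under 0.05, beside 2.8% of all miRNAs. miR-99a-5p, from the transcript of let-7c-1, had 107 and 103 in ASO, against 197 and 179.6 in CRO, a log2 ratio of -0.84 by the authors' deposited table, where its raw p was 0.039 and its adjusted p 1. miR-125a-5p, from the transcript of let-7e, had 1845 and 1575 in ASO, against 1426 and 2495 in CRO. Its log2 ratio was -0.20 by the authors' deposited table, and let-7e-5p stayed level across the 4 libraries in normalized counts.

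The profile of the summed family over the 4 libraries was closest to those of miR-146a-5p, miR-322-5p and miR-103-3p. The measure was the root mean square distance between centred log2 profiles, among the 111 other miRNAs whose base mean reached 1000, and the distances were 0.058, 0.061 and 0.067 on the log2 scale, beside a median of 0.25 over the 111. miR-146a-5p had normalized counts of 146992 and 171776 in ASO, against 188449 and 148021 in CRO, highest in CRO library a as the family sum was. With 4 libraries this likeness is a description only.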

How the data were processed

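Total RNA was isolated with Trizol and converted to small RNA libraries with an Illumina TruSeq kit, per the labels' protocols. DESeq and the mm9 build are listed in the submitters' processing notes. No source used here gives the aligner or the miRNA annotation. The table the authors deposited holds, per the file headers, mean normalized signal over all libraries and per group, a fold ratio and its log2 (CRO over ASO, turned here to ASO over CRO), and each miRNA's p-value, raw and adjusted. A further file deposited by the authors gives a count of differential miRNAs with ASO as Control and CRO as Case, and served only to check the direction of the comparison. CRO is taken as the control here, from the series' design text.

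A group mean averages 2 whole counts after scaling. Both counts were solved for from the deposited digits, to a tolerance of 1 unit of digit 15, set after the residuals were seen. All 1073 means of each group could be written in this way. 1 of them, miR-155-5p in ASO, had 4 solutions, of which 1 gave median-ratio size factors matching the decoded ones to a relative tolerance of 1e-09. The ASO libraries had size factors of 1.626 and 1.422, the CRO libraries 0.782 and 0.557. The decoding and the fits were tested on simulated data.

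The authors' adjusted p (threshold 0.05) is the main test. The recovered libraries were fitted with limma 3.58.1 (trend and robust) in R 4.3.3 on log2(normalized count + 1), over the 482 miRNAs whose base mean reached 10. Adjustment was Benjamini-Hochberg. Named miRNAs are the members, their 3p arms, let-7 relatives by name or seed, transcript neighbours and the 3 closest profiles. Members and lists were chosen with earlier results of these data known. RefSeq sequences matched 9 of 9 members and 890 of the 1073 miRNAs. Coordinates are those of GRCm38, not of mm9. Python 3.11.15, numpy 2.4.6, scipy 1.17.1, pandas 2.3.3 and matplotlib 3.10.9 were used. No source used here mentions molecular identifiers. The Wilson intervals of the family's share cover counting error only, while the limma intervals rest on the spread between libraries.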

Additional observations from a re-analysis of the deposited data

How the results depend on the processing

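Of 108 alternative values for the members' log2 ratios (ASO over CRO), 88 kept their direction and their side of the threshold, 19 turned sign and 1 passed the threshold. The sign turned only for ratios near 0 or when a library was left out. Upper-quartile scaling put let-7d-5p at 0.0615 and let-7f-5p at 0.0751, and it moved the median of all 482 miRNAs to 0.13. let-7e-5p was -0.0396 with scaling by library totals. let-7f-5p was 0.0045 with limma on log2 values, also at a pseudocount of 0.5 or 10, with no filter and with a base mean minimum of 50, and 0.0085 with limma-voom. At the authors' scaling and with all libraries kept, the change of sign of let-7f-5p follows from averaging logs instead of counts over unequal libraries. Leaving out each library in turn gave -0.36 to 0.0441 for let-7b-5p, -0.11 to 0.0942 for let-7d-5p, -0.0306 to 0.0688 for let-7e-5p, -0.49 to 0.50 for let-7f-5p, -0.0455 to 0.35 for let-7g-5p and -0.0783 to 0.61 for let-7i-5p. For let-7f-5p the lowest came without CRO library b and the highest without CRO library a. A group left with 1 library was assumed to vary like the other.

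Members called higher numbered 0 to 1 when a library was left out, the 1 being miR-98-5p without CRO library a, and members called lower were 0 throughout. Over the whole table the miRNAs called higher in ASO, 1 by the authors' deposited adjusted p, numbered 10 at a raw p under 0.05, 4 with at least 2-fold as well, 0 when readjusted or fitted by limma above a base mean of 50, and 5 with upper-quartile scaling. Those called lower, 12 by the authors' deposited adjusted p, numbered 20 at a raw p under 0.05. Leaving out each library gave 0 to 31 higher and 4 to 32 lower, both highest without CRO library a. The family's share was 18.6% in ASO and 19.0% in CRO when miR-155-5p was left out of the total. In CRO library b 5 of 9 members kept their rank. The log2 ratio of the family sum lay between -0.21 and 0.24 with a library left out. With the mean of log2 values per library, an alternative chosen after seeing the data, it was 0.0048.

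No paired analysis was possible because the libraries recovered from the group means carry no replicate number. With 2 libraries a group, the intervals of the members' differences span a wide range, and counting error is small beside the spread between libraries.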
